A study of Mus musculus with 4 samples.

Results

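The cyclic AMP and adenosine axis was examined in mouse CD4+ CD8- thymocytes through 10 genes chosen by name. They encode cyclic AMP phosphodiesterases (Pde3b, Pde4b, Pde4d, Pde7a), ectoenzymes that make adenosine outside the cell (Nt5e, Entpd1), receptors that raise cyclic AMP (Adora2a, Ptger2, Ptger4) and a cyclic AMP sensor (Rapgef3). Of these 10 genes, 9 were read by 30 probe sets, out of 18193 genes with a named probe set. Adora2a had no probe set named for it alone in the annotation used, so it has no value here. Each gene is described by its main probe set, the one with the highest mean over the 4 arrays. The genes were picked with the values of these arrays in view, so their differences are descriptions and were not tested.

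RNA was hybridised to Affymetrix mouse 430 2.0 arrays, 1 array for each of 4 sorted populations from thymus of females aged 6 to 8 weeks. From homozygous Foxp3(gfp/gfp) mice, in which the Foxp3 protein carries GFP as a knock-in fusion, 3 populations were taken: GFP- CD25-, GFP- CD25+ and GFP+. The GFP+ one is named Foxp3-fusion in what follows. Foxp3(gfpko/wt) females, heterozygous at this X-linked gene, gave the GFP+ population named Foxp3-null. Foxp3 is the transcription factor that marks regulatory T cells, and CD25 is a chain of the interleukin 2 receptor. All mice were backcrosses of 129/Sv to C57BL/6, for 4 to 6 generations except for the Foxp3-null array, where it was 2 generations. Genotype, mice and array therefore cannot be told apart in any comparison with Foxp3-null cells. The labels name no treatment and no engineered gene other than Foxp3.

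Cyclic AMP is a second messenger made by adenylyl cyclases when receptors coupled to stimulatory G proteins are engaged. In T cells it acts through protein kinase A and through the EPAC exchange factors, and it dampens signalling from the T cell receptor. Phosphodiesterases break it down. CD39, encoded by Entpd1, removes phosphates from extracellular ATP and ADP, and CD73, encoded by Nt5e, turns the resulting AMP into adenosine, which raises cyclic AMP through the receptor that Adora2a encodes. Mature regulatory T cells of the mouse are known for both ectoenzymes.

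Values are log2 signals after quantile normalization, which gives all 4 arrays the same distribution of signals. A floor of 4.11 log2 was set from genes of other tissues, and a value at or under it is treated as not above background. Where 1 of the 2 arrays is at the floor, the fold is only a minimum and carries the words "at least". With 1 array per population there is no spread, error or p-value for any level or difference, and neighbours in an order of levels could not be tested against a spread. In sorted populations, fewer cells of a kind and less RNA per cell cannot be told apart.

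The arrays differed in ways that touch every gene. Foxp3 read 2.76 and 2.88 log2 in GFP- CD25- and GFP- CD25+ cells, 7.27 in Foxp3-null and 8.82 in Foxp3-fusion cells, so it was under the floor in both GFP- populations and above it in both GFP+ populations. GFP was used in the sort, and no source used here says whether the Foxp3 probe set reads the part that the knockout changed. The gap between the 3' and 5' actin controls, a sign of how far the amplified RNA was shortened, was smallest on the Foxp3-fusion array at 5.02 log2 and was 7.10 to 9.29 on the other 3. All 8 measured CD4 T cell markers were above the floor on every array. Of 10 dendritic cell and macrophage markers, 1 or 2 were above it, and of 6 B cell markers at most 1. Of 7 thymic epithelium markers, 2 (Epcam and Krt5) were above the floor on every array, with a summed signal of 7.08 to 7.68 log2. Cd8a, 1 of 2 CD8 T cell markers, was above the floor on every array. The 3 erythroid markers and the 1 gamma delta T cell marker were under the floor throughout. Of 6 NK and NKT cell markers, 3 (Klrd1, Zbtb16 and Nkg7) were above it in the GFP- CD25- population, 0 in the GFP- CD25+ population and 1 in each GFP+ population, and their summed signal ran from 5.67 to 7.72 log2. The part of these differences in the results below was not tested.

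Upstream sequences from RefSeq (GRCm38.p6) are shown for the 4 genes with a window there whose signal set 1 population or 3 populations apart: Nt5e, Entpd1, Ptger2 and Rapgef3. Each holds the 250 bases before an annotated start, 5' to 3' on the gene's strand, and capitals mark TGACG, the core of the cyclic AMP response element, which reads CGTCA where it lies on the other strand.
Nt5e, plus strand, chr9:88327359-88327608: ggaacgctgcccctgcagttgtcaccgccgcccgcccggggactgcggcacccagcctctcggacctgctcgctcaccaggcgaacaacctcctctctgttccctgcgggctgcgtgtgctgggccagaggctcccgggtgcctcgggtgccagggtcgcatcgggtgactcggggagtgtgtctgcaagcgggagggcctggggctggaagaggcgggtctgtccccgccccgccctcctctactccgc
Entpd1, first start, plus strand, chr19:40612116-40612365: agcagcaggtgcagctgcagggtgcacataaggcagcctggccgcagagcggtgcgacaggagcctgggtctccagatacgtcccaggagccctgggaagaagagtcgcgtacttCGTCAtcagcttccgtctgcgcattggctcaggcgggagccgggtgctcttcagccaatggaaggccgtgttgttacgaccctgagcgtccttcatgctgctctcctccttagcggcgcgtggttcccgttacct
Entpd1, other start, plus strand, chr19:40659520-40659769: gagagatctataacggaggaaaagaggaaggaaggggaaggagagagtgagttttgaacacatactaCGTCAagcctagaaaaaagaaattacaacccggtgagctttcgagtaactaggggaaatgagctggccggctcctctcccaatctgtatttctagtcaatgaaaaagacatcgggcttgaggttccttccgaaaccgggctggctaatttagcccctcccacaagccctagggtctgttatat
Ptger2, plus strand, chr14:44987861-44988110: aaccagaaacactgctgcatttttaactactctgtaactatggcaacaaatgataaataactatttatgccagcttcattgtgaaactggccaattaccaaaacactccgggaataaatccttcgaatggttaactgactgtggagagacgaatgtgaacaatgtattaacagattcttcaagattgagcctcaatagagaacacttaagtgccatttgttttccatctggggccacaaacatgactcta
Rapgef3, minus strand, chr15:97767667-97767916: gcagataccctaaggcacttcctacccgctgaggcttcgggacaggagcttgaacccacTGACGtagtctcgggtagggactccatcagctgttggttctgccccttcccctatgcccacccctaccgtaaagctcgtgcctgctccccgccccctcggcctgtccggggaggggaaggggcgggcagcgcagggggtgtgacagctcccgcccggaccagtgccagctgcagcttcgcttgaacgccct

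RefSeq windows of 300 bases (250 before and 50 after a start) were given for 7 of the 10 genes, 11 windows in all. The full cyclic AMP response element TGACGTCA was in 0 of the 11, against 1.79% of all 32851 windows. The core TGACG, which the full element contains, was in 4 of the 11 (both Entpd1 windows, 1 of the 4 Pde4b windows and the Rapgef3 window) against 20.8% of all windows, both strands being searched. The forkhead motif TGTTTAC was in 0 of 11 against 3.65%. GC content was 71.0% in the Nt5e window, 65.0% in the Rapgef3 window and 37.7% in the Ptger2 window. These are matches of letters, and the arrays do not measure binding there.

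Among the receptors, Ptger2 and Ptger4 had their lowest signal in GFP- CD25- cells. They encode EP2 and EP4, the prostaglandin E2 receptors that couple to stimulatory G proteins. Ptger2 read 4.26 log2 in GFP- CD25-, 7.89 in GFP- CD25+, 8.39 in Foxp3-null and 8.23 in Foxp3-fusion cells. GFP- CD25- cells thus stood just above the floor and the other 3 populations lay within 0.50 log2 of each other, or 0.88 with deposited values. Relative to GFP- CD25- cells, Ptger2 signal was 12.4-fold higher in the GFP- CD25+ population, 17.5-fold in the Foxp3-null and 15.7-fold in the Foxp3-fusion population. Since the GFP- CD25- reading is close to background, these folds lean on where the floor lies: with a floor 1 log2 unit higher they were 2.78, 3.28 and 3.12 log2 in place of 3.63, 4.13 and 3.97. These 3 comparisons share the GFP- CD25- array. Among measured genes, Ptger2 ranked 6 of 8113 from the highest difference in GFP- CD25+ cells and 9 of 8323 in Foxp3-null cells. The order of the GFP+ arrays turned with the scale, since deposited values were 8.12 in Foxp3-null and 8.60 in Foxp3-fusion cells. Ptger2 has 1 probe set, so no other reading of it was at hand.

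Ptger4 was bright on every array, at 9.79 log2 in GFP- CD25-, 10.60 in GFP- CD25+, 10.94 in Foxp3-null and 11.61 in Foxp3-fusion cells. This order, with Foxp3-fusion cells highest, was the same on the deposited scale. Foxp3-fusion cells were 3.53-fold above GFP- CD25- cells, 2.02-fold above GFP- CD25+ cells and 1.60-fold above Foxp3-null cells. The 2.02-fold value, 1.01 log2, became 0.88 log2 with the arrays centred on their medians. The last difference was 0.67 log2 and became 1.23 log2 with deposited values. Foxp3-null cells were 2.21-fold above GFP- CD25- cells, or 1.74-fold with deposited values. The other Ptger4 probe set was under the floor on all arrays, with its highest reading, 3.82 log2, also in Foxp3-fusion cells.

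**Figure D1:**
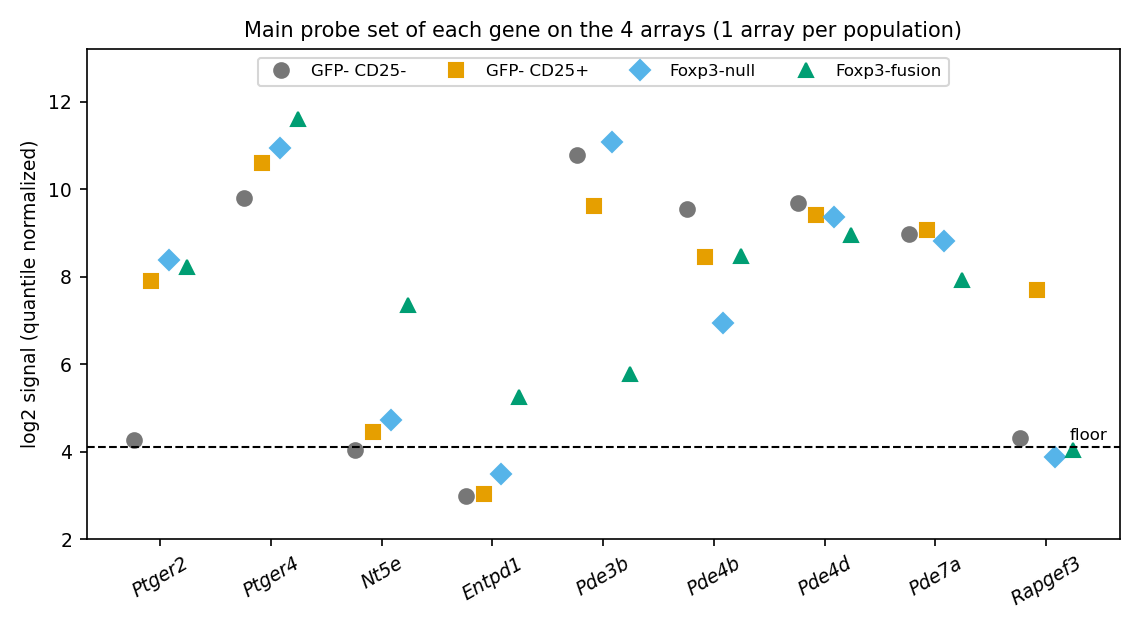
Quantile normalized log2 signal (y axis) of the main probe set of each of the 9 measured genes (x axis) on the 4 arrays, 1 symbol per population; the dashed line is the floor of 4.11 log2. Pde3b stands lowest and Nt5e and Entpd1 highest in Foxp3-fusion cells, Ptger2 is near the floor in GFP- CD25- cells alone, and Rapgef3 is well above it in GFP- CD25+ cells alone.

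Both ectoenzyme genes had their highest signal in Foxp3-fusion cells. Nt5e, the CD73 gene, read 4.04 log2 in GFP- CD25-, 4.46 in GFP- CD25+, 4.72 in Foxp3-null and 7.35 in Foxp3-fusion cells. The 3 other populations were no more than 0.61 log2 above the floor, and the gap to Foxp3-fusion cells was 2.63 log2 or more. Foxp3-fusion cells exceeded GFP- CD25- cells at least 9.41-fold, GFP- CD25+ cells 7.41-fold and Foxp3-null cells 6.17-fold. On the deposited scale the last value was 8.03-fold. Both other Nt5e probe sets were under the floor on all 4 arrays, so the pattern rests on 1 probe set. These other probe sets did not peak in Foxp3-fusion cells, where they had their lowest readings, 2.20 and 2.68 log2. Their highest readings, 2.26 and 3.03 log2, were in Foxp3-null cells.

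Entpd1, the CD39 gene, was weak. It read 3.0 log2 in GFP- CD25-, 3.04 in GFP- CD25+, 3.49 in Foxp3-null and 5.24 in Foxp3-fusion cells, so it was above the floor only in Foxp3-fusion cells. Against each other population it was at least 2.19-fold higher there, a minimum that the floor sets. In each of the 3 comparisons this minimum, 1.13 log2, became 0.54 log2 with arrays centred on their medians and 0.13 log2 with a floor 1 log2 unit higher, both under 2-fold. Both other Entpd1 probe sets lay under the floor on all arrays, and both had their highest reading in Foxp3-fusion cells, at 3.13 and 3.98 log2. CD39 is also carried by dendritic cells, macrophages and B cells. In Foxp3-fusion cells 0 of 6 B cell markers and 1 of 10 dendritic cell and macrophage markers (Adgre1, above the floor on all 4 arrays) were above the floor. Over GFP- CD25-, GFP- CD25+, Foxp3-null and Foxp3-fusion cells the summed signal was 6.51, 6.63, 7.15 and 6.51 log2 for the dendritic cell and macrophage list and 5.55, 5.81, 6.30 and 5.67 log2 for the B cell list. Both sums were highest in Foxp3-null cells, where Entpd1 was under the floor, and their part in the Entpd1 signal was not tested.

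Pde3b set Foxp3-fusion cells apart more than any other of the 9 genes. It encodes a phosphodiesterase that cyclic GMP inhibits and lies on chromosome 7 from 114415222 to 114537938 (GRCm38.p6). It read 10.78 log2 in GFP- CD25-, 9.62 in GFP- CD25+, 11.08 in Foxp3-null and 5.78 in Foxp3-fusion cells. Foxp3-fusion cells were still above the floor, so the folds are not bounds. The Pde3b signal in Foxp3-fusion cells was 32.1-fold lower than in GFP- CD25- cells, 39.3-fold lower than in Foxp3-null cells and 14.3-fold lower than in GFP- CD25+ cells. With deposited values these were 28.1-fold, 27.5-fold and 10.7-fold. Of 8481 measured genes, Pde3b had the lowest difference of Foxp3-fusion from Foxp3-null cells. GFP- CD25+ cells held an intermediate place, 2.24-fold below GFP- CD25- cells and 2.75-fold below Foxp3-null cells. Foxp3-null and GFP- CD25- cells differed by 0.30 log2, or -0.03 log2 with deposited values, so their order is not fixed by these data. Pde3b has 1 probe set.

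The PDE4 genes encode phosphodiesterases specific for cyclic AMP. Pde4b read 9.55 log2 in GFP- CD25-, 8.45 in GFP- CD25+, 6.95 in Foxp3-null and 8.48 in Foxp3-fusion cells. Foxp3-null cells were lowest, 6.08-fold below GFP- CD25- cells, and Foxp3-fusion cells were 2.89-fold above them (4.58-fold with deposited values). Other Pde4b probe sets differed from this. One read 6.26, 4.55, 4.52 and 6.87 log2 in that order, and so put Foxp3-fusion cells 5.09-fold above Foxp3-null cells, but it was also higher in Foxp3-fusion than in GFP- CD25- cells. Another read 6.97, 6.34, 7.48 and 6.77 log2, with Foxp3-null cells highest. The remaining 3 were under the floor. Pde4b is transcribed from several starts, and no source used here says which transcripts each probe set reads.

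Pde4d varied little, from 9.68 log2 in GFP- CD25- cells over 9.41 in GFP- CD25+ cells and 9.37 in Foxp3-null cells to 8.94 in Foxp3-fusion cells. No pair of arrays was 2-fold apart. On the deposited scale Foxp3-fusion cells, at 9.30 log2, came second after GFP- CD25- cells at 9.76. The second Pde4d probe set did not reach the floor on any array.

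Pde7a, whose product has a high affinity for cyclic AMP, read 8.97 log2 in GFP- CD25-, 9.06 in GFP- CD25+, 8.83 in Foxp3-null and 7.92 in Foxp3-fusion cells. Foxp3-fusion cells were lowest, 2.07-fold below GFP- CD25- cells and 1.87-fold below Foxp3-null cells, but with deposited values these folds were 1.71 and 1.20. On the 4 other Pde7a probe sets above the floor, Foxp3-fusion cells were 0.39 to 1.08 log2 below Foxp3-null cells and 0.16 to 0.39 log2 below GFP- CD25- cells. With deposited values Foxp3-fusion cells were lowest of these 3 populations on 2 of the 5 probe sets. Another then read 6.89 log2 in Foxp3-fusion and 6.75 in Foxp3-null cells, a further one 8.43 in Foxp3-fusion and 8.37 in GFP- CD25- cells, and the last 5.57 in all 3, so the direction beyond the main probe set depended on the scale. Against GFP- CD25+ cells, Foxp3-fusion cells were 2.19-fold lower on the main probe set, or 1.52-fold with deposited values. Of the 4 others, 3 were also lower in that comparison, 0 of them by 2-fold, and 1 was 0.67 log2 higher.

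Rapgef3 stood apart from the rest, with signal mainly in GFP- CD25+ cells. It encodes EPAC1, which activates the small GTPase RAP1 when it binds cyclic AMP. It read 4.32 log2 in GFP- CD25-, 7.71 in GFP- CD25+, 3.87 in Foxp3-null and 4.04 in Foxp3-fusion cells. GFP- CD25+ cells were 10.5-fold above GFP- CD25- cells and at least 12.1-fold above each GFP+ population, which lay under the floor. The GFP- CD25- reading was just above the floor, so the 10.5-fold value leans on where the floor lies. That difference, 3.39 log2, became 2.59 log2 with a floor 1 log2 unit higher. A second Rapgef3 probe set read 5.0 log2 in GFP- CD25+ cells and 2.57 to 2.62 log2, under the floor, in the other 3. The remaining 3 probe sets were under the floor on all arrays. The annotated span of Rapgef3 overlaps those of the noncoding RNAs Rapgef3os2 and Gm33531, for which no probe set was named.

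**Figure D2:**
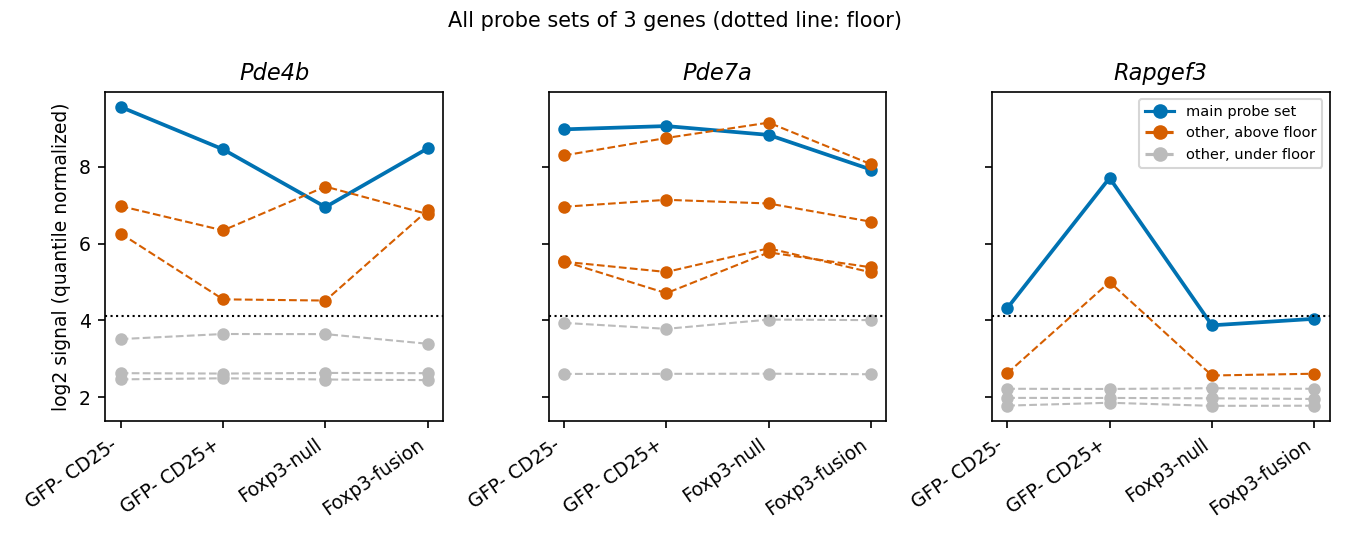
Quantile normalized log2 signal (y axis) of every probe set of Pde4b, Pde7a and Rapgef3 on the 4 arrays (x axis; lines only join readings of 1 probe set), with the main probe set solid blue, others above the floor dashed orange and those under it grey. The main Pde4b probe set and another read Foxp3-null cells lowest (6.95 and 4.52 log2) and a further one reads them highest (7.48), whereas both Rapgef3 probe sets above the floor peak in GFP- CD25+ cells (7.71 and 5.0).

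In Foxp3-fusion over GFP- CD25- cells, 4 of 9 measured members were higher by 2-fold or more (Ptger2, Ptger4, Nt5e and Entpd1) and 3 were lower (Pde3b, Pde4b and Pde7a); a gene counts as measured when it is above the floor on at least 1 of the 2 arrays. Of all 8135 genes measured there, 9.98% were higher by that much and 5.3% lower, 15.3% in all. Foxp3-null over GFP- CD25- cells had 2 of 8 members higher by 2-fold, Ptger2 and Ptger4, and 1 lower, Pde4b, where 10.8% and 7.5% of 8323 genes were, 18.3% in all. In Foxp3-fusion over Foxp3-null cells, Nt5e, Entpd1 and Pde4b were at least 2-fold higher and Pde3b lower of 8, where 9.28% and 9.36% of 8481 genes were, 18.6% in all. GFP- CD25+ over GFP- CD25- cells had 2 of 8 higher, Ptger2 and Rapgef3, and 2 lower, Pde3b and Pde4b, where 4.12% and 4.49% of 8113 genes were, 8.6% in all. Because the genes were chosen with these values known, nothing is read from their share against that of all genes.

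Against GFP- CD25+ cells, Foxp3-fusion cells had Nt5e, Entpd1 and Ptger4 at least 2-fold higher and Pde3b, Pde7a and Rapgef3 lower of 9 members, where 11.5% and 8.1% of 8306 genes were, 19.6% in all. Foxp3-null over GFP- CD25+ cells had Pde3b higher and Pde4b and Rapgef3 lower of 8 members, where 8.58% and 7.27% of 8317 genes were, 15.9% in all. Foxp3-null cells thus differed from both GFP- populations in Pde4b and from Foxp3-fusion cells in Pde3b, Pde4b and both ectoenzyme genes on the main probe sets. Median differences over the members were small, from -0.20 to 0.26 log2 over the 6 comparisons, since members stood on both sides of 0. The median over all measured genes ran from -0.15 to 0.19 log2. The share of higher genes among all those 2-fold apart depended on the scale. In the order of the 6 comparisons just given it was 65.3%, 59.0%, 49.8%, 47.9%, 58.8% and 54.1% after normalization, and 80.1%, 32.0%, 83.4%, 28.0%, 86.4% and 43.5% with deposited values. On the deposited scale Foxp3-fusion over Foxp3-null cells had a median of 0.85 over the members and 0.23 over all genes.

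**Figure D3:**
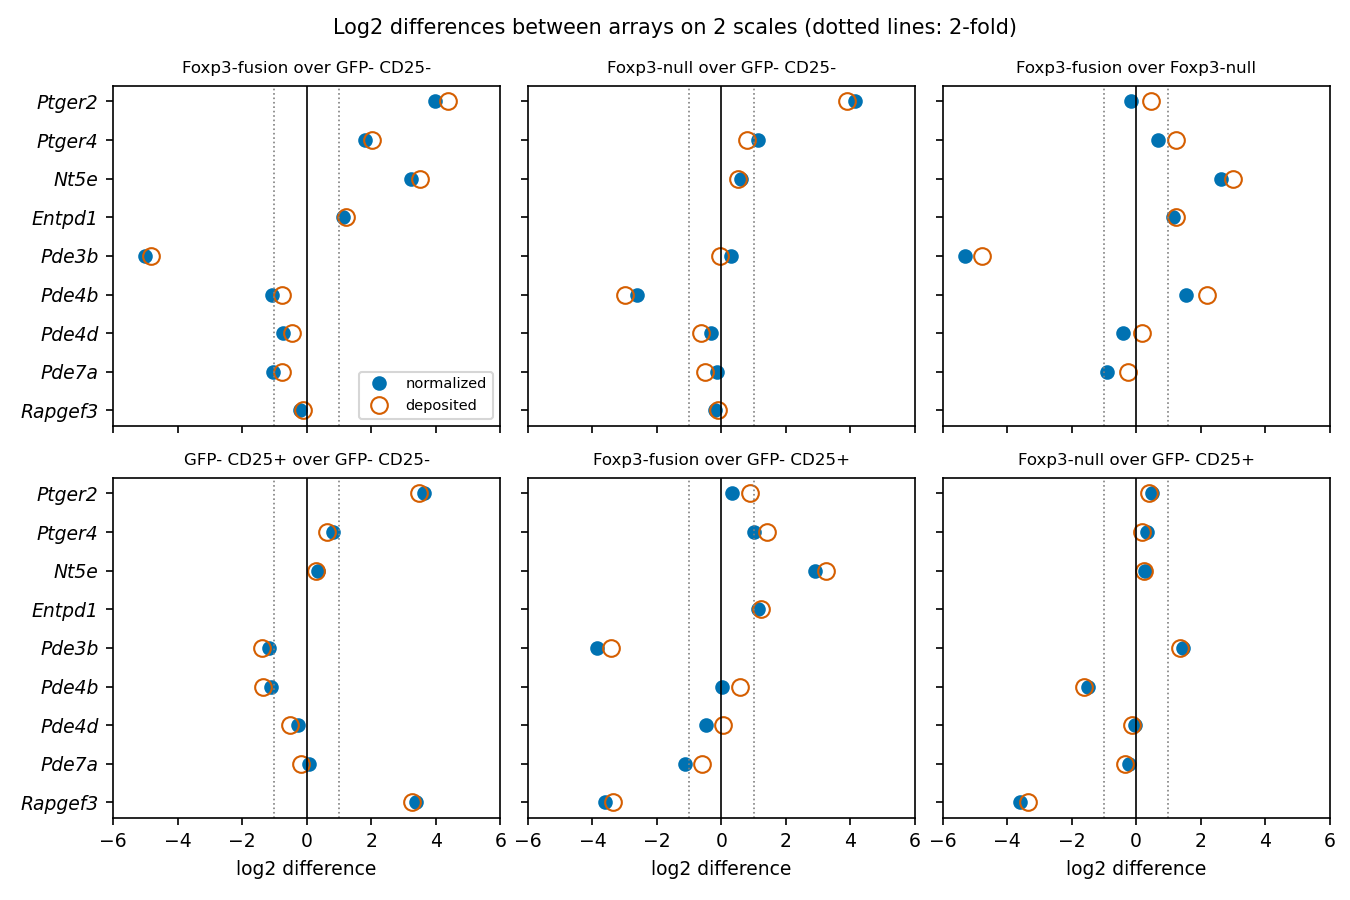
Log2 difference between 2 arrays (x axis) for each measured gene (y axis) in the 6 comparisons, with filled points for quantile normalized and open points for deposited values; dotted lines mark 2-fold and genes under the floor on both arrays have no point. Pde3b lies at -5.0 and -5.30 in Foxp3-fusion over GFP- CD25- and over Foxp3-null cells, while the Pde4d and Ptger2 points of Foxp3-fusion over Foxp3-null cells lie on opposite sides of 0 on the 2 scales.

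A wider list of 109 other genes of the pathway covered receptors, G protein chains, adenylyl cyclases, phosphodiesterases, protein kinase A, RAP proteins, CREB factors and targets, nucleotide handling and prostaglandin synthesis. Of these, 99 had a named probe set and 60 were above the floor on at least 1 array. In Foxp3-fusion over GFP- CD25- cells 9 of 58 measured were higher by 2-fold or more and 5 lower (9.98% and 5.3% of all genes). Their median was -0.11 log2 (all genes, -0.05). In Foxp3-null over GFP- CD25- cells it was 4 and 3 of 59 (all genes, 10.8% and 7.5%) with a median of 0.02 (all genes, 0.19). In Foxp3-fusion over Foxp3-null cells it was 7 and 2 of 54 (all genes, 9.28% and 9.36%) with a median of -0.24 (all genes, -0.15). GFP- CD25+ over GFP- CD25- cells had 6 higher and 4 lower of 59 (all genes, 4.12% and 4.49%). Against GFP- CD25+ cells, of 54 measured genes, 7 were higher and 5 lower in Foxp3-fusion cells (all genes, 11.5% and 8.1%) and 5 higher and 4 lower in Foxp3-null cells (all genes, 8.58% and 7.27%). These counts moved with the scale. With deposited values Foxp3-fusion over GFP- CD25- cells had 9 higher and 3 lower among 56 genes, with a median of 0.02 log2. All genes there had 1167 and 290 of 7907, with a median of 0.12. In Foxp3-null over GFP- CD25- cells it was 2 and 6 of 57 with a median of -0.16 (all genes, 449 and 953 of 8234, median 0.0). Both medians of the wider list thus changed sign. On that scale Foxp3-fusion over Foxp3-null cells had 11 higher and 0 lower of 54 and a median of 0.21, also of the other sign. The median over all genes turned likewise, to 0.23, with 1634 higher and 325 lower of 8395. The deposited counts were 6 and 8 of 57 in GFP- CD25+ over GFP- CD25- cells, 12 and 3 among 54 for Foxp3-fusion over GFP- CD25+ cells and 3 and 6 of 54 in Foxp3-null over GFP- CD25+ cells. Over all genes these deposited counts were 221 and 569 of 7986, 1713 and 270 of 8181, and 518 and 673 of 8284. None of the 6 prostaglandin E2 synthesis and breakdown genes with a probe set was measured in these comparisons.

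Among other phosphodiesterase genes, Pde2a, whose product is stimulated by cyclic GMP, ran opposite to Pde3b in Foxp3-fusion cells. It read 4.29 log2 in GFP- CD25-, 2.52 in GFP- CD25+, 2.49 in Foxp3-null and 7.04 in Foxp3-fusion cells. Foxp3-fusion cells stood 6.73-fold above GFP- CD25- cells and at least 7.59-fold above either of the other populations. Both other Pde2a probe sets were under the floor. Pde11a was highest in GFP- CD25- cells at 7.28 log2 and read 5.78 in GFP- CD25+, 5.99 in Foxp3-null and 5.19 in Foxp3-fusion cells, 4.26-fold below the first.

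Upstream of cyclic AMP, the adenylyl cyclase gene Adcy6 was 2.77-fold lower and the prostacyclin receptor gene Ptgir 2.29-fold lower in Foxp3-fusion than in GFP- CD25- cells. GFP- CD25+ and Foxp3-null cells were also below GFP- CD25- cells, 1.87-fold and 1.75-fold in Adcy6 and 1.81-fold and 1.92-fold in Ptgir. With deposited values Ptgir was lowest in Foxp3-null cells, 2.40-fold below GFP- CD25- cells, against 2.05-fold in Foxp3-fusion cells. Other genes of this step were higher in Foxp3-fusion than in GFP- CD25- cells, and 3 of them are named after their values were seen. Ptger3, the gene of a prostaglandin E2 receptor that couples to inhibitory G proteins, was at least 3.29-fold higher in the same comparison, Gnai3, an inhibitory G protein chain gene, 2.73-fold and Gnas, the stimulatory chain gene, 2.24-fold. Gnas was also 2.45-fold higher in Foxp3-null than in GFP- CD25- cells, or 1.92-fold with deposited values. Ptger3 was also at least 2.38-fold higher in GFP- CD25+ than in GFP- CD25- cells. Ptger1, a prostaglandin E2 receptor gene, was 2.45-fold lower in Foxp3-fusion than in GFP- CD25+ cells. P2rx7, an ATP-gated channel gene, read 4.83, 4.84 and 4.30 log2 in GFP- CD25-, GFP- CD25+ and Foxp3-null cells but 6.77 in Foxp3-fusion cells, 5.55-fold above Foxp3-null cells. The Foxp3-null reading was just above the floor, so the 5.55-fold value leans on where the floor lies. A second P2rx7 probe set was above the floor only in Foxp3-fusion cells, at 5.32 log2.

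Among nuclear genes of the pathway, Crem showed the widest contrast between the GFP+ populations. It encodes activators and also the early repressor ICER. It read 4.65 log2 in GFP- CD25-, 4.19 in GFP- CD25+, 4.12 in Foxp3-null and 7.23 in Foxp3-fusion cells. Foxp3-fusion cells were 5.97-fold above GFP- CD25- cells and 8.61-fold above Foxp3-null cells, and a second Crem probe set exceeded the floor only there, at 5.04 log2. The Foxp3-null and GFP- CD25+ readings of the main Crem probe set were just above the floor. The 8.61-fold value therefore leans on where the floor lies. The CREB coactivator gene Crebbp was 3.03-fold lower in GFP- CD25+ than in GFP- CD25- cells. Of its other probe sets, 2 also read GFP- CD25+ cells lowest, but another read them highest, at 6.59 log2.

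The orphan receptor genes Nr4a2 and Nr4a3, known CREB targets that T cell receptor signals also induce, had their lowest signal in GFP- CD25- cells. Nr4a3 read 7.82 log2 there, 9.68 in GFP- CD25+, 10.37 in Foxp3-null and 9.96 in Foxp3-fusion cells, and was 3.65-fold, 5.89-fold and 4.43-fold above GFP- CD25- cells in that order. Nr4a2 read 5.99, 8.26, 7.32 and 6.02 log2 over the same arrays, so Foxp3-fusion cells matched GFP- CD25- cells within 0.03 log2. A second Nr4a2 probe set read 5.03, 7.77, 7.25 and 6.80 log2 and did not show that match.

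Of 16 measured genes for protein kinase A subunits, inhibitors and anchors, 1 was higher by 2-fold and 2 lower in Foxp3-fusion over GFP- CD25- cells. Over all genes this was 9.98% and 5.3%. In Foxp3-null over GFP- CD25- cells it was 1 and 2 of 17 (all genes, 10.8% and 7.5%). GFP- CD25+ over GFP- CD25- cells had 1 and 1 of 17 (all genes, 4.12% and 4.49%). With deposited values these counts were 1 and 0, 1 and 2, and 1 and 3. The deposited counts over all genes were 1167 and 290 of 7907, 449 and 953 of 8234, and 221 and 569 of 7986. Pkig, an inhibitor gene, was 5.53-fold higher in GFP- CD25+ than in GFP- CD25- cells and 5.99-fold higher than in Foxp3-fusion cells, a peak shared with Rapgef3. The anchor gene Akap10 was 5.0-fold lower in Foxp3-null than in GFP- CD25- cells, and a second probe set read 8.35 log2 in GFP- CD25- and 6.88 in Foxp3-null cells. Akap10 was also 2.05-fold lower in Foxp3-fusion than in GFP- CD25- cells, or 1.70-fold with deposited values. The catalytic subunit gene Prkaca was 2.26-fold lower in the same comparison, or 1.85-fold with deposited values. Foxp3-null cells were 1.45-fold below GFP- CD25- cells in Prkaca, and likewise 1.85-fold with deposited values. Foxp3-fusion cells were also 2.22-fold below GFP- CD25+ cells in Prkaca, or 1.54-fold with deposited values. Akap9 was 2.44-fold lower in Foxp3-null than in GFP- CD25- cells, although another probe set read 6.59 log2 in GFP- CD25- and 7.24 in Foxp3-null cells. Akap13 was 2.98-fold higher in Foxp3-null than in GFP- CD25- cells on its main probe set, while another probe set went from 8.50 to 7.77 log2. In Foxp3-fusion cells the main Akap13 probe set was 2.96-fold above GFP- CD25- cells. Akap11 was 2.40-fold higher in Foxp3-null than in GFP- CD25+ cells. The RAP genes Rap1b and Rap2b were 2.43-fold lower in GFP- CD25+ than in GFP- CD25- cells and 2.03-fold below Foxp3-null cells in Foxp3-fusion cells, respectively; the latter was 1.52-fold with deposited values.

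**Figure D4:**
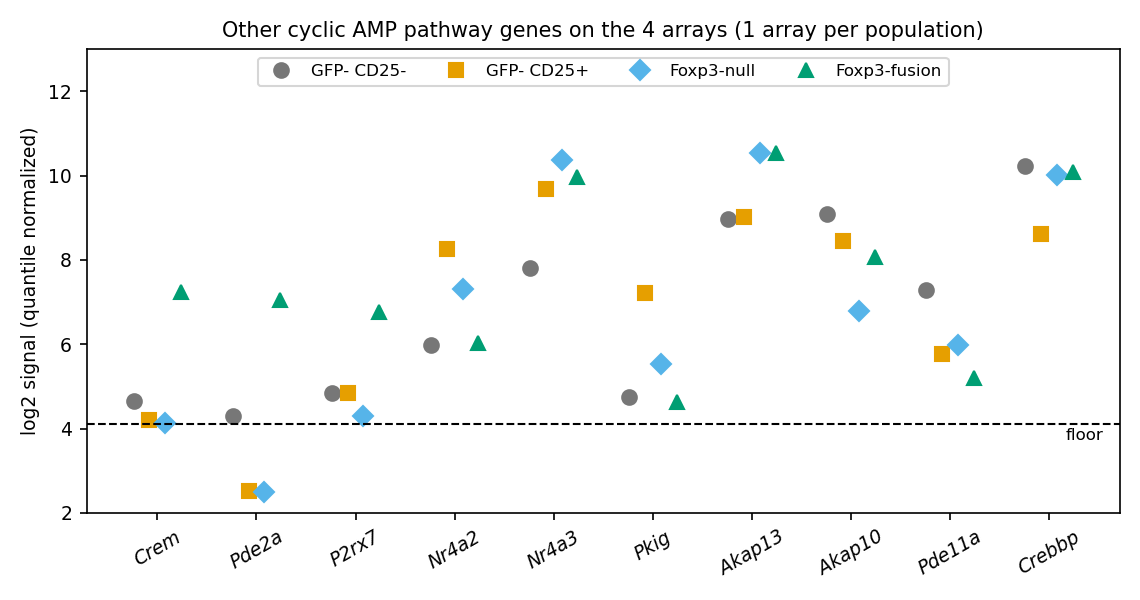
Quantile normalized log2 signal (y axis) of the main probe sets of 10 other pathway genes (x axis) on the 4 arrays, 1 symbol per population, with the floor dashed; these 10 were picked for the plot after their values were seen. Crem, Pde2a and P2rx7 stand highest in Foxp3-fusion cells (7.23, 7.04 and 6.77 log2), Nr4a2 and Pkig in GFP- CD25+ cells (8.26 and 7.22).

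Profiles over the 4 arrays were compared with those of Pde3b and Nt5e among 8686 genes above the floor on at least 1 array. The measure was the root mean square distance after centring each gene on its own mean. Values under the floor were first set to the floor, so readings under it counted as equal before centring. The 5 genes nearest Pde3b were Tdrp, Gramd1a, Rgcc, Pyroxd2 and Enc1, at distances of 1.14 to 1.22 log2, so none lay close. Tdrp read 7.90, 6.45, 8.34 and 5.46 log2 over GFP- CD25-, GFP- CD25+, Foxp3-null and Foxp3-fusion cells. Nearest to Nt5e were Kcnf1, Eif3m, Gbp3, Stat4 and 1110032F04Rik, at 0.11 to 0.22 log2. Gbp3 read 6.96, 7.71, 8.02 and 10.68 log2 in the same order, and Kcnf1 and Stat4 were near the floor outside Foxp3-fusion cells, as Nt5e was. Each likeness rests on 4 values.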

How the data were processed

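The authors deposited 1 value for each probe set on each array, on a log scale taken here as log2 from the range. Per the labels' protocols, RNA went through 2 rounds of amplification to biotin-labelled cRNA. Summarisation and normalization are not given in the sources used here. The 90th percentile ran from 7.54 to 8.16 log2 over the arrays, and between 732 and 2570 probe sets had exactly the same value in a pair of arrays. After leaving out 64 control probe sets of 45101, the values were quantile normalized; deposited values are the first alternative. Names came from the platform annotation (34958 probe sets with 1 gene, 932 with several, left unnamed). For the floor, the 90th percentile over the probe sets of 34 genes silent in T cells was taken on each array and the highest kept (4.18 log2 on the deposited scale). A gene was measured in a comparison if above the floor on at least 1 of the 2 arrays. Arrays were grouped by title; the description of the Foxp3-null sample repeats that of the gfp/gfp mice.

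No test was made with 1 array per group. The text names all members, the 3 largest differences of 2-fold or more in each direction among the wider genes, and the 5 nearest profiles. Some further differences of the wider genes are named outside this rule, after their values were seen. Members and lists were chosen with earlier results of these data known. Python 3.11.15 and pandas 2.3.3 were used. The code was run on simulated arrays, in which 200 genes well above the floor were moved by more than 2-fold. The noise was small and set in advance. Of these 200 changed genes among 18193, 198 were recovered at 2-fold and 0 unchanged genes were called. Such a run checks the code only, since the real noise is unknown with 1 array per group and no gene near the floor was moved. The 9 alternatives concern scale, floor, probe set and threshold.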

Additional observations from a re-analysis of the deposited data

How the results depend on the processing

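Of 27 member differences of at least 2-fold, all 27 kept direction and stayed 2-fold without a floor, with a floor at the array median and without the _x_ and _s_ probe sets, and all 27 kept direction and 23 kept 2-fold with deposited values. Those that did not were Pde4b and Pde7a in Foxp3-fusion over GFP- CD25- cells, Pde7a in Foxp3-fusion over GFP- CD25+ cells and Ptger4 in Foxp3-null over GFP- CD25- cells. With arrays centred on the median above the floor 23 remained and with a higher floor 24, Entpd1 being lost in all 3 comparisons each time and, with centring, Ptger4 in Foxp3-fusion over GFP- CD25+ cells (0.88 log2) as well. The median over probe sets takes in readings under the floor; 17 then had a value and 9 kept 2-fold. It turned Pde4b in Foxp3-fusion over GFP- CD25- cells to 0.19 log2 and Pde7a in Foxp3-fusion over GFP- CD25+ cells to 0.12 log2. With it the members 2-fold apart numbered 3 in Foxp3-fusion over GFP- CD25- cells, 1 in Foxp3-null over GFP- CD25-, 1 in Foxp3-fusion over Foxp3-null, 2 in GFP- CD25+ over GFP- CD25-, 1 in Foxp3-fusion over GFP- CD25+ and 1 in Foxp3-null over GFP- CD25+ cells, and the wider genes 5, 2, 5 and 3 in the first 4. At 3-fold the members numbered 4 in Foxp3-fusion over GFP- CD25-, 2 in Foxp3-fusion over Foxp3-null, 2 in GFP- CD25+ over GFP- CD25-, 3 in Foxp3-fusion over GFP- CD25+ and 1 in Foxp3-null over GFP- CD25+ cells; the wider genes numbered 7, 2, 3, 4, 7 and 3 over all 6 comparisons in the order above. At 1.5-fold the wider genes numbered 17, 27, 18, 23 and 19 from the second comparison on. The 3-fold and 1.5-fold counts were out of the same measured genes as at 2-fold. With the median over probe sets 6 members were measured in each comparison but the last, which had 5. Wider genes measured with it were 45, 41, 43 and 43 in the first 4. In Foxp3-null over GFP- CD25- cells the wider genes numbered 14 of 99 without a floor and 11 of 73 with a floor at the array median, against 7 of 59. The share of all genes was not counted under these settings, so nothing is read from the counts. No paired analysis was possible because each group has 1 array. Single arrays, and readings near background for Entpd1, Nt5e, Rapgef3 and, in GFP- CD25- cells, Ptger2 (4.26 log2), limit precision. Among the wider genes, Crem and Pde2a also read near or under the floor outside Foxp3-fusion cells, and P2rx7 read near it in Foxp3-null cells (4.30 log2).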
